A study of Mus musculus with 4 samples.

Results

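The RNA exosome is a complex that degrades and trims RNA from its 3' end, and 10 of its subunit genes were taken from an array study of oxygen deprivation in mouse fibroblasts. Members were all probe sets, the groups of short probes that each report 1 transcript, whose platform gene symbol was Exosc1, Exosc2, Exosc3, Exosc4, Exosc5, Exosc7, Exosc8, Exosc9, Exosc10 or Dis3. This found 15 of 22690 probe sets, which stand for 9 of the 10 genes among 12393 genes; no probe set named Exosc3 alone, and that subunit was not analysed here. The set was chosen by the hypoxia signals of Exosc4 on these same arrays, so the values of Exosc4 are a description, and the question put to the data was whether Exosc4 moved alone.

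RNA came from primary mouse embryonic fibroblasts grown from e14.5 embryos. Cells spent 6 h in an atmosphere of 21% oxygen, called normoxia, or of 0.1% oxygen, called hypoxia; carbon dioxide was 5% and the temperature 37 °C in every group. Their genotype was either wild type or tri-CH1, in which both p300 alleles and 1 CBP allele carry a deletion of the CH1 domain, so that 1 CBP allele keeps it; p300 and CBP are related transcriptional coactivators, and the CH1 domain binds the hypoxia-inducible factor HIF-1α among other partners. Each of the 4 groups was measured on 1 array, so no value has a replicate error and no difference was tested; the number of embryos or cultures behind an array was not given in the sources used here. A change in a signal cannot be told apart from a change in the share of cells that express the gene.

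The exosome core consists of a barrel-shaped ring of proteins related to bacterial RNase PH, closed on one side by a cap of RNA-binding proteins. In animals the ring itself cuts nothing, and RNA is threaded through it to Dis3, an exonuclease and endonuclease at its base, or reaches the nuclear exonuclease Exosc10 on the cap side. The complex trims precursors of ribosomal RNA and of small nucleolar RNAs in the nucleus and destroys faulty or surplus RNA in nucleus and cytoplasm.

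The start regions of 3 members are shown because these genes were measured to go different ways: Exosc1, which fell in both genotypes, Exosc5, which was lower in hypoxia in both by less than 2-fold, and Exosc10, which was higher in hypoxia in both by less than 2-fold. Each runs 5' to 3' on the strand of the gene from 250 bases before to 50 after a RefSeq transcript start on build GRCm38.p6, and capitals mark matches to the motifs named in the next paragraph, on either strand. Exosc1 is at chr19:41933265-41933564 (minus strand), Exosc5 at chr7:25658903-25659202 (plus strand) and the first of 2 listed starts of Exosc10 at chr4:148558169-148558468 (plus strand).
Exosc1: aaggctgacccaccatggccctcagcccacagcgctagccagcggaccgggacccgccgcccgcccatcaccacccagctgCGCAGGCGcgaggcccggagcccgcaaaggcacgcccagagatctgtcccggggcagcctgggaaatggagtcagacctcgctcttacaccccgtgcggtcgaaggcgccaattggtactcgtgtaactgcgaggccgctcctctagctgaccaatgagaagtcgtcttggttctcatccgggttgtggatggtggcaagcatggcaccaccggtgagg
Exosc5: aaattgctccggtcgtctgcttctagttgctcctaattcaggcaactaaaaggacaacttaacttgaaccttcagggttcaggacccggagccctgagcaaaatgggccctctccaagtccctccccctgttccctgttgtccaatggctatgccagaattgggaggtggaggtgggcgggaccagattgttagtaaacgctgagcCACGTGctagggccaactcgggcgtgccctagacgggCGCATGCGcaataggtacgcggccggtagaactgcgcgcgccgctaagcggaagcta
Exosc10: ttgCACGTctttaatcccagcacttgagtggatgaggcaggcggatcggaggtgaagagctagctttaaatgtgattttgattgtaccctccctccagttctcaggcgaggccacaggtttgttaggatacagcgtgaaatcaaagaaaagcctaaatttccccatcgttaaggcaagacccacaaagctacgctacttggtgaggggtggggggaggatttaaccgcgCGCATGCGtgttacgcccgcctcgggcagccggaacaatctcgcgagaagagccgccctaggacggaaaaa

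The motifs searched were ACGTG (the core that HIF binds), CACGTG (an E-box, which contains the HIF core on both strands), CGCANGCG (part of the NRF1 site), AANATGGCG (YY1) and CCGGAAG (ETS factors), where N is any base. RefSeq starts were at hand for 8 of the 10 genes, with Exosc3 included and Exosc4 and Exosc9 missing. These gave 9 start regions in all. The NRF1 letters were in 5 of these 9, those of Exosc1, Exosc2, Exosc5, Exosc7 and the Exosc10 start shown, against 8.21% of 32851 start regions of the same length. ACGTG was in 2 of the 9, Exosc5 and Exosc10, against 19.6% of all. In Exosc5 it lies within an E-box, which 7.15% of all start regions hold. YY1 motifs were in 2 (Exosc2 and the other start of Exosc10) against 2.38%, and ETS motifs in 3 (Exosc3, Dis3 and the other start of Exosc10) against 8.86%. The Exosc1 region, shown above, held no ACGTG on either strand, and that of Exosc8 held none of the motifs. The motifs were chosen after these sequences had been read, the 9 start regions held between 48.0% (Exosc2) and 75.7% (Exosc8) G or C, against a median of 52.7% over all, and a match is letters in a window only.

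Across the arrays, the values were linear signals that had been scaled to a target of 500. The scale factors ran from 3.46 to 10.3, which put the scaled background between 139 and 393, the range in which many exosome signals also lie. The wild-type normoxia array was of another manufacturing lot than the other 3, and the hypoxia change in tri-CH1 and the genotype difference in hypoxia do not use it. Hypoxia raised each of 5 well-known HIF targets in both genotypes: Slc2a1, Bnip3, Ndrg1, Egln3 and Ero1a. For example Bnip3, a mitophagy receptor, rose in wild type from 402.5 to 10530 and in tri-CH1 from 493.5 to 10422. All 12 of 12 fibroblast markers were at 500 or more on some array, with sums between 147658 and 171426. Not all were that bright on every array: Pdgfra was between 309 and 523, Pdgfrb between 486 and 1337 and Lum between 355 and 2684. Of 21 measured markers of epithelial, endothelial, blood, neural and muscle cells, 12 were under 200 on all 4 arrays, among them Epcam, Cdh1, Pecam1, Cdh5, Tek, Ptprc, Hba-a1, Tubb3, Sox2 and Myod1. The others with signals above that included the endothelial Kdr (302 to 391), the macrophage gene Adgre1 (176 to 364), Map2 (109 to 387) and Des (286 to 393), and 4 reached 500 on some array: Krt8, Krt18, Krt19 and Nes, an intermediate filament gene of neural progenitors that was between 568 and 1027. The keratin gene Krt19 rose in hypoxia, in wild type from 145 to 3881 and in tri-CH1 from 423 to 2676, and carried the sum of the 5 epithelial markers from 985 to 4817 and from 1251 to 3224; its part in the exosome values was not tested.

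Changes below are log2 ratios of signals after those under 200 were raised to 200, a level at which dim signals no longer have an order. To be counted, a gene needed a signal of 500 on at least 1 of the 2 arrays compared, and "rose", "fell", "higher by 2-fold" and "lower by 2-fold" mean a ratio of at least 2-fold among such genes. Each gene is represented by its brightest probe set, and 8 of the 9 subunits reached 500 on at least 1 array; Exosc8 did not, and only Exosc10 and Dis3 did so on all 4. The only measure of error on the arrays is how far probe sets of 1 gene differ. Over 1980 genes whose 2 brightest probe sets were at 200 or more on all arrays, this gave an SD of 0.25 (log2) for the hypoxia change in wild type, 0.29 in tri-CH1, 0.32 for the genotype difference in normoxia and 0.30 in hypoxia, none of which holds variation between cultures.

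In hypoxia, Exosc4 did not fall alone in wild-type cells. Exosc1, a cap protein, fell by about as much, and fell in tri-CH1 cells as well, where Exosc4 was not lower by its brightest probe set. Of the 8 subunits that reached 500 on some array, 7 had a lower signal in wild-type hypoxia and 4 in tri-CH1 hypoxia. Beside these counts stand 56.7% and 53.5% of the 4645 genes that reached 500 on some array. The 7 hold Exosc4, by which the set was chosen, and Exosc2 at -0.02. Outside the 4 are, among others, Exosc9, under 200 on both tri-CH1 arrays, and Exosc4, lower there by another probe set (-0.76). Under quantile normalization or cyclic loess the wild-type count was 6. In each scaling, 6 of the 8 lay below the wild-type median of all genes. The nuclease Exosc10 was the exception in wild type as deposited, with a signal that was higher in hypoxia in both genotypes.

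**Figure D1:**
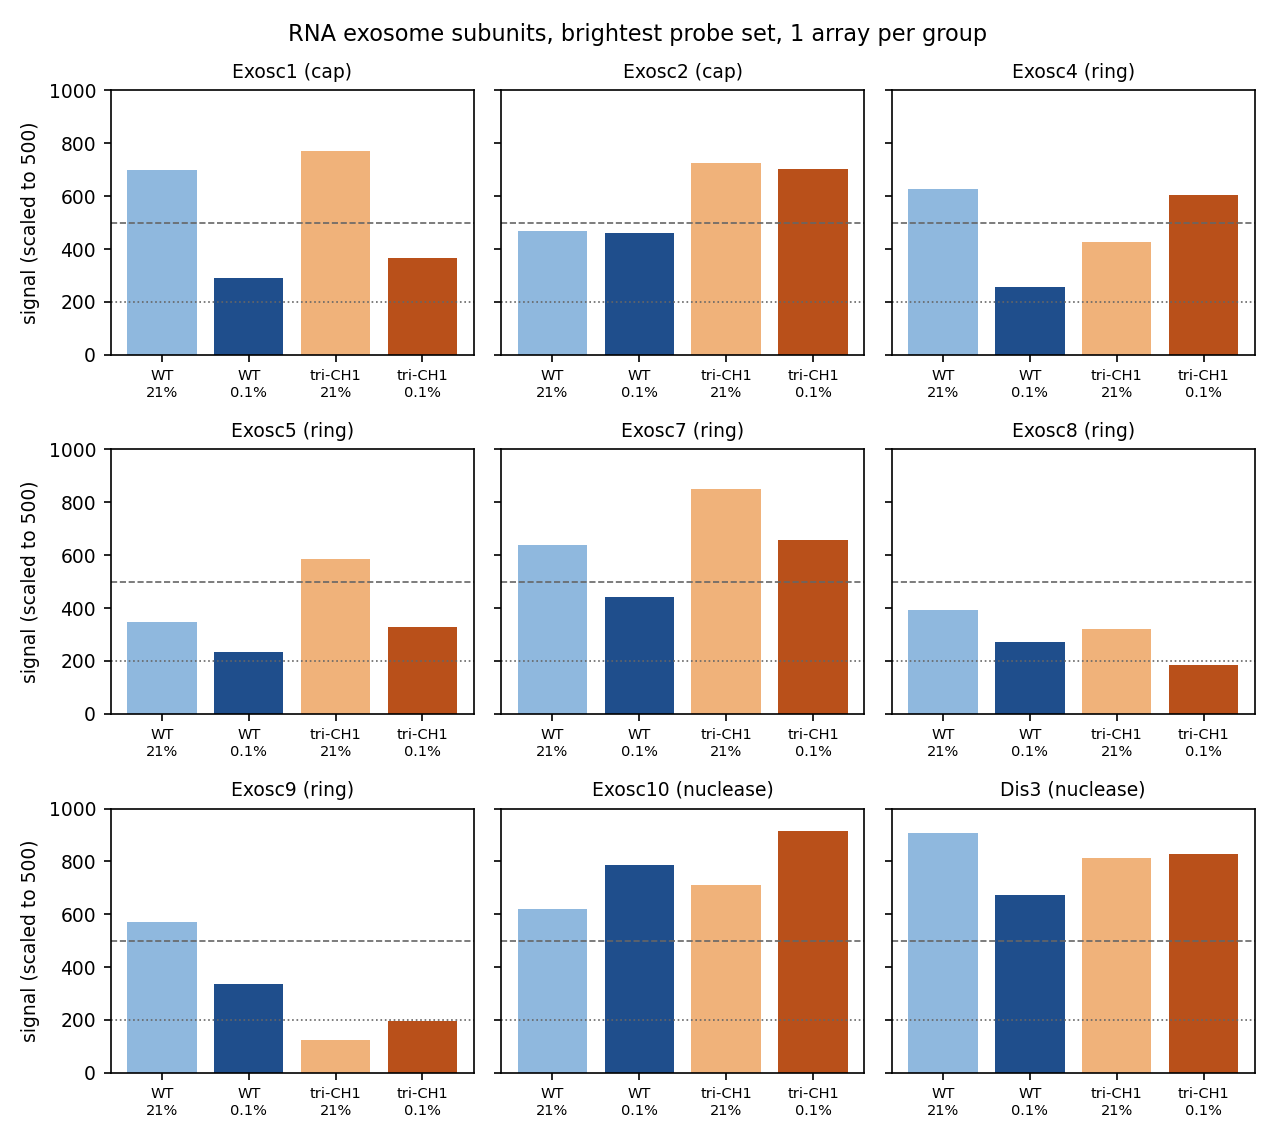
Signal (scaled to a target of 500, axis from 0) of the brightest probe set of 9 exosome subunits on the 4 arrays, 1 bar per array; the dashed line is at 500 and the dotted line at 200. Exosc1 is low on both hypoxia arrays, Exosc4 is low only on the wild-type hypoxia array, Exosc9 is under 200 on both tri-CH1 arrays and Exosc10 is highest on the hypoxia arrays.

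Among the cap subunits, Exosc1 (the yeast Csl4 counterpart) had signals of 699 in wild-type normoxia, 289 in wild-type hypoxia, 769 in tri-CH1 normoxia and 367 in tri-CH1 hypoxia. Both hypoxia arrays were below both normoxia arrays. Exosc1 fell 2.42-fold in the wild type and 2.10-fold in tri-CH1, or -1.28 and -1.07 on the log2 scale. Of 4125 genes counted in wild type, 18 had a change as low or lower, and of 4358 in tri-CH1, 32 did. Genes lower by 2-fold in both genotypes numbered 9 of 3838 counted in both, and Exosc1 was the exosome gene among them. The measurement rests on 1 probe set, since the other probe set of Exosc1 was under 200 on all 4 arrays (103, 20.6, 179 and 161 in the same order) and gives no change.

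Exosc2, an S1-domain cap protein (yeast Rrp4), had signals of 467 and 459.7 in the wild type and 724 and 704 in tri-CH1, normoxia first. It differed with oxygen by -0.02 in the wild type and -0.04 in tri-CH1, each far below the SD between probe sets. The signs of these small values turned under quantile normalization or cyclic loess in wild type, and under scaling to the same median in tri-CH1. So within the cap, a member that fell in both genotypes stood beside a member at nearly the same signal in normoxia and hypoxia.

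Among the ring subunits, Exosc4 (yeast Rrp41) had signals of 628 in wild-type normoxia, 256 in wild-type hypoxia, 427 in tri-CH1 normoxia and 605 in tri-CH1 hypoxia. The wild-type hypoxia array was the lowest, and the tri-CH1 hypoxia array was close to wild-type normoxia. Exosc4 fell 2.46-fold in wild type (-1.30 on the log2 scale), a change that 17 of 4125 counted genes equalled or passed downward, and had a change of 0.50 in tri-CH1. Subtracting the wild-type from the tri-CH1 change left 1.80, the highest value as deposited among the 3838 genes counted in both genotypes. Both ranks come from the signals by which the set was chosen and from the brightest probe set alone, so they only describe Exosc4.

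The probe sets of Exosc4 did not tell the same story. Another probe set, 1460679_at, had 447 and 342 in the wild type and 338 and 200.1 in tri-CH1, normoxia first, so that it was lower in hypoxia in both genotypes, by -0.39 and -0.76. By that probe set the same subtraction left -0.37, the opposite sign to the 1.80 of the brightest probe set, 1424685_at. The probe sets differed by 1.26 in the tri-CH1 change, a gap reached by 14 of the 1980 genes with 2 such probe sets (0.707%), and by -0.91 in the wild-type change, a size reached by 43 (2.17%). A further probe set, 1437712_x_at, was between 16.8 and 47.6 on all arrays. The direction shared by the brighter probe sets is therefore the lower signal in wild-type hypoxia, of -1.30 or -0.39, while the direction in tri-CH1 depends on the probe set.

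**Figure D2:**
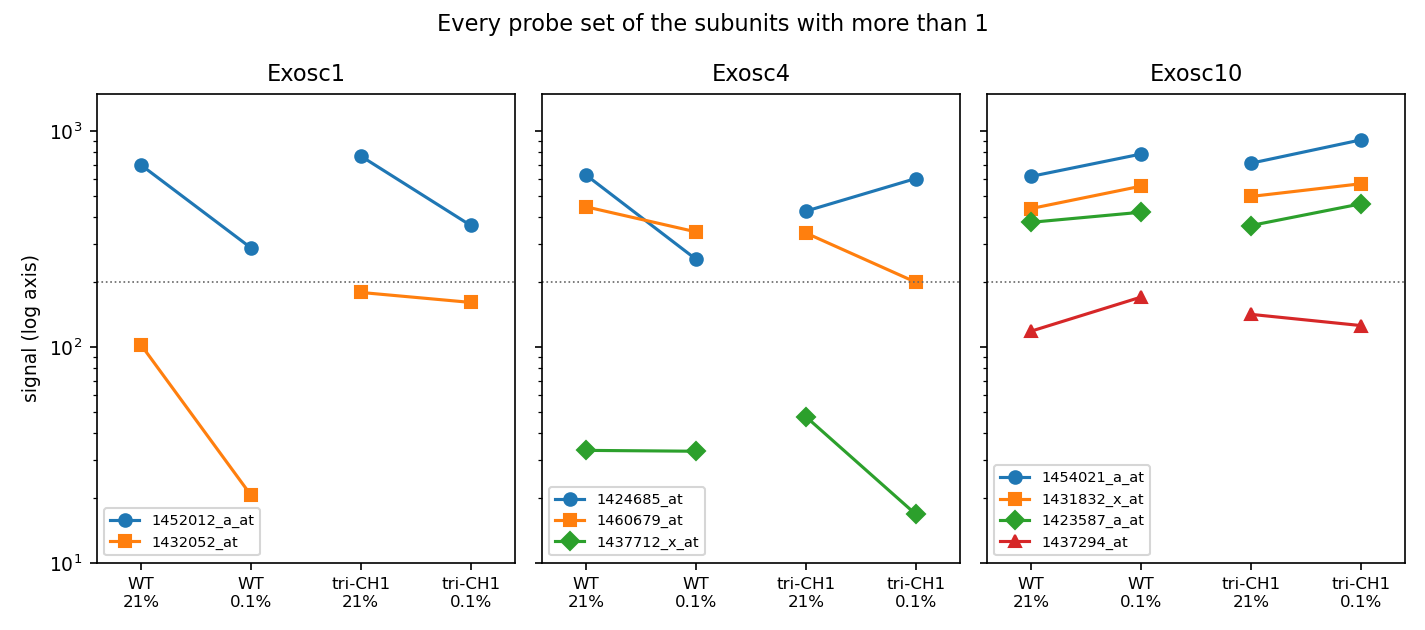
Signal on a log axis of every probe set of Exosc1, Exosc4 and Exosc10 on the 4 arrays, joined within each genotype; the dotted line is at 200, under which changes are not read. For Exosc4, 1424685_at goes up from 427 to 605 in tri-CH1 while 1460679_at goes down from 338 to 200.1, whereas the 3 brighter probe sets of Exosc10 go up in both genotypes.

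Exosc5 (yeast Rrp46), a ring subunit, had signals of 347 and 233 in the wild type and 587 and 327 in tri-CH1. Its hypoxia changes were -0.58 and -0.85, both below 0 by more than the SD between probe sets and both under 2-fold. In wild type it did not reach 500, so it was not counted there.

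Exosc7 (yeast Rrp42) had signals of 640.1 and 444 in the wild type and 849 and 659 in tri-CH1. Its changes were -0.53 and -0.37. Exosc8 (yeast Rrp43) had signals of 392 and 271 in the wild type and 320.0 and 183 in tri-CH1, with changes of -0.54 and -0.68, or -0.81 in tri-CH1 without the floor. All 3 of these ring genes had the lower signal in hypoxia in each genotype, and none passed 2-fold.

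Exosc9 (yeast Rrp45, an autoantigen in polymyositis-scleroderma overlap disease) had signals of 569 and 335 in the wild type and 123 and 198 in tri-CH1. Its change in wild type was -0.77, a 1.70-fold decrease that did not pass 2-fold. In tri-CH1 both signals were under 200, so no change was read; without the floor the value would be 0.68.

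Of the nucleases, Exosc10 (yeast Rrp6, the nuclear exonuclease) had signals of 619 and 786 in the wild type and 712 and 914 in tri-CH1. Its changes were 0.34 and 0.36, above the SD between probe sets of 0.25 and 0.29 and well under 2-fold. Its other probe sets above 200 gave 0.34 and 0.16 in the wild type and 0.20 and 0.33 in tri-CH1, all of 1 sign, and a further probe set was under 200 on every array. The 3 probe sets of Exosc10 above 200 thus gave the same, upward direction in each genotype.

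Dis3, the processive nuclease of the core, had signals of 906 and 673 in the wild type and 812 and 827 in tri-CH1. Its changes were -0.43 in the wild type and 0.03 in tri-CH1. The wild-type hypoxia array held the lowest of its signals, and the other 3 lay between 812 and 906.

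By count, 2 of the 6 subunits counted in wild type fell (Exosc1 and Exosc4) and 0 rose, against a background in which 1.19% of counted genes fell and 3.05% rose. In tri-CH1, 1 of 7 fell (Exosc1) and 0 rose, against 0.987% and 3.19%. The wild-type count holds the contrast from which Exosc4 was picked, and nothing is read from it. The median change over the 8 subunits at 500 on some array was -0.55 in wild type, and -0.53 without Exosc4, beside -0.05 over 4645 such genes. In tri-CH1 it was -0.02, and -0.04 without Exosc4, beside -0.03 over all. The median in wild-type hypoxia was thus about as low without Exosc4. Of the hypoxia comparisons, only that in wild type holds the array of the other lot, and the part of the lot in it was not tested.

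**Figure D3:**
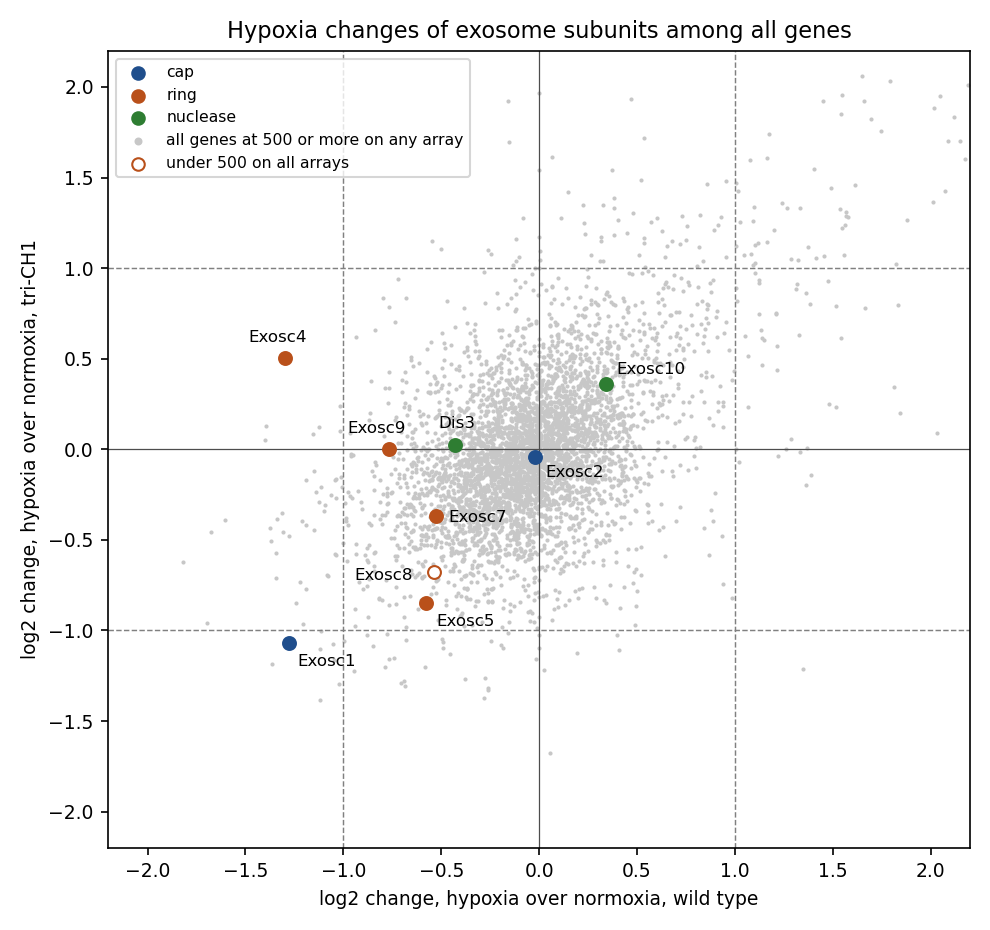
Log2 change of hypoxia over normoxia in wild type (x axis) and in tri-CH1 (y axis) for 4645 genes at 500 or more on some array (grey, axes cut at 2.2 either way) and for 9 exosome subunits coloured by role; dashed lines are at 2-fold. Exosc1 lies past 2-fold downward on both axes, Exosc4 only on the wild-type axis, and Exosc10 lies up on both at 0.34 and 0.36.

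Each genotype difference shares its arrays with the hypoxia changes above, so values of the same gene are not independent. Between genotypes, Exosc9 and Exosc4 passed 2-fold, each at a single oxygen level. Exosc9 was lower in tri-CH1 than in wild type by at least 2.85-fold in normoxia, from 569 to a signal under 200 (123). That comparison uses the wild-type normoxia array of the other lot. The scaled background was 139 on that array and 343 on the tri-CH1 normoxia array, and their part was not tested. In hypoxia Exosc9 lay at 335 in wild type against 198 in tri-CH1, where neither array reached 500. Exosc4 was higher in tri-CH1 by 2.37-fold in hypoxia (605 against 256) after a difference of -0.56 in normoxia, but 1460679_at had differences of -0.40 in normoxia and -0.78 in hypoxia, so that the sign in hypoxia turned with the probe set. By count, 1 of 8 subunits was lower by 2-fold in normoxia and 0 higher, against 3.48% lower and 3.16% higher over all counted genes. In hypoxia, 1 of 5 was higher and 0 lower, against 3.76% and 3.31%. That 1 is Exosc4, by whose hypoxia signals the set was chosen, and nothing is read from the hypoxia count.

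The remaining genotype differences were under 2-fold, and several were alike at both oxygen levels, comparisons that share no array. Exosc2 was higher in tri-CH1 by 0.63 in normoxia and 0.61 in hypoxia, Exosc5 by 0.76 and 0.49, and Exosc7 by 0.41 and 0.57. Each was more than the SD between probe sets as deposited. The normoxia value of Exosc7 was 0.19 under scaling to the same median, below that SD. In hypoxia Exosc5 was at 233 in wild type and 327 in tri-CH1, so it was not counted there. With a floor of 400 its hypoxia difference was 0. Exosc10 had 0.20 and 0.22 and Exosc1 0.14 and 0.35, while Exosc8 had -0.29 and -0.44 and Dis3 -0.16 and 0.30. The median of the 8 subunits was 0.17 in normoxia and 0.42 in hypoxia, beside 0.03 and 0.05 over all genes. Without Exosc4 the subunit medians were 0.20 and 0.35. Scaling to the same median put the normoxia median of all genes at -0.20 and that of the subunits at -0.05, with the signs of Exosc1 and Exosc10 in normoxia turned, so that relative to all genes the subunits stayed higher by 0.15 there and by 0.14 as deposited. Fibroblast markers also differed by genotype. Thy1, a surface glycoprotein, was at 13148 and 12389 in wild type against 3837 and 3274 in tri-CH1, and Lum, a matrix proteoglycan, at 355 and 419 against 1562 and 2684; their part in the subunit differences was not tested.

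**Figure D4:**
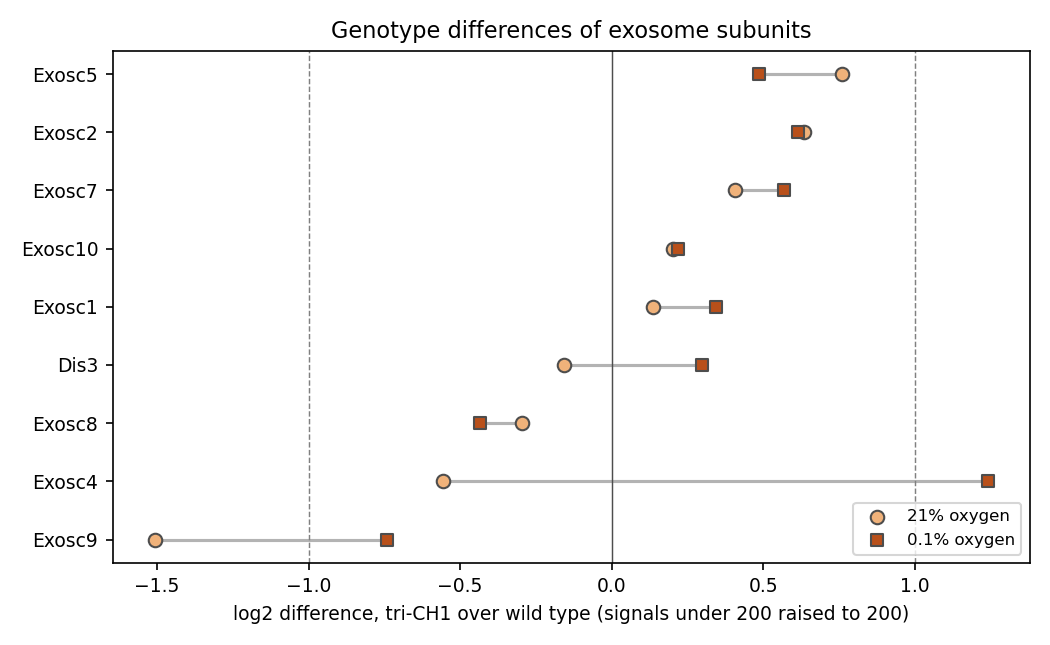
Log2 difference of tri-CH1 over wild type for 9 exosome subunits at 21% oxygen (circles) and 0.1% oxygen (squares), with dashed lines at 2-fold. Exosc2, Exosc5 and Exosc7 lie to the right at both oxygen levels, Exosc9 lies to the left at both, and Exosc4 moves from -0.56 to 1.24.

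By its brightest probe set, 1424685_at, the genes whose pattern over the 4 arrays was closest to that of Exosc4 were not exosome subunits. The search took only genes at 500 or more on some array, which leaves out Exosc8. Distances to the other Exosc4 probe set, 1460679_at, were not computed, and its tri-CH1 direction was the opposite. By the Euclidean distance between log2 signals, with the floor, centred on each gene's mean, the nearest of 4645 genes were Rps27 at 0.28 (a ribosomal protein gene), Pqbp1 at 0.31 (a polyglutamine-binding splicing factor), and Alg1, Atxn2 and Grina at 0.38 each. Rps27, for example, had 1057, 402, 767 and 838, with the wild-type hypoxia array low and the others near each other. The nearest subunit to Exosc4 was Dis3, at rank 208 with a distance of 0.75, and Exosc1 was at rank 2463. The genes closest to Exosc1, looked up after its values were seen, were Prmt7 at 0.19 (an arginine methyltransferase), Aatf at 0.23, Pop5 at 0.25 (a shared protein of RNase P and RNase MRP), Ampd2 at 0.26 (an AMP deaminase) and Nop56 at 0.30 (a core protein of box C/D small nucleolar particles). For Aatf, at 40.9 in wild-type hypoxia, and Pop5, at 163, this closeness depends on the floor of 200, to which those signals were raised. The nearest subunit to Exosc1 was Exosc5, at rank 100 and a distance of 0.64.

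On RefSeq GRCm38.p6, Exosc4 lies on chromosome 15, where its span overlaps that of Oplah, and the next array gene on its other side is Gpaa1. Oplah, the 5-oxoprolinase gene, was between 26.6 and 125 on all arrays. Gpaa1, a subunit of the GPI transamidase, was between 1270.1 and 1513, with hypoxia changes of 0.21 for wild type and -0.11 for tri-CH1. Gpaa1 thus did not follow the fall of Exosc4 in wild type, while no change can be read for Oplah, whose signals were all under the floor.

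The genes of proteins that bring RNA to the exosome held 1 hypoxia change past 2-fold. Of 22 listed cofactors, helpers and further subunits, 16 were on the array under a single symbol and 12 reached 500 on some array, with median hypoxia changes of -0.03 in the wild type and -0.09 in tri-CH1. None of the 11 counted in wild type passed 2-fold, beside 3.05% of all counted genes that rose and 1.19% that fell. In tri-CH1, 1 of 12 rose and 0 fell, beside 3.19% and 0.987% of all counted genes. The gene that rose was Mphosph6, which links the helicase Mtrex to the nuclear exosome. Mphosph6 had 792 and 987 in the wild type and 304 and 675 in tri-CH1. Mphosph6 rose by 1.15 in tri-CH1 from a normoxia level with a genotype difference of -1.38, and had 0.32 in wild type. Mtrex, the RNA helicase that unwinds nuclear substrates, had 387 and 377 in the wild type and 528 and 474 in tri-CH1, with changes of -0.04 and -0.16. C1d, a partner of Exosc10, had 1548 and 1188 in the wild type and 1702 and 1187 in tri-CH1, with changes of -0.38 and -0.52. Wdr61, of the cytoplasmic Ski complex, had changes of -0.01 and -0.28, and the ribosome-rescue factor gene Hbs1l had 1224 and 1219.6 in wild type, then 1112 and 1036 in tri-CH1.

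Other routes of RNA decay and processing held 2-fold changes with oxygen in both directions. Over the 4 lists, 1 of 35 counted genes rose in wild type and 2 fell, beside 3.05% and 1.19% of all counted genes, and in tri-CH1 1 of 35 rose and 1 fell, beside 3.19% and 0.987%. Of 9 genes of decapping and 5' to 3' decay at 500 on some array, Lsm7, of the LSm rings that bind RNA 3' ends, fell at least 2.53-fold in wild type, from 506 to a signal under 200, and had 836 and 640.0 in tri-CH1; the list medians were 0.08 and -0.02. Dcps, the scavenger decapping enzyme, was higher in tri-CH1 at both oxygen levels, at 519 against 195 in normoxia and 608 against 260.1 in hypoxia. Another list held 13 genes of deadenylases and of proteins that act with them, such as Tob1 and Pabpc1. In it Cnot7, a catalytic subunit of the CCR4-NOT complex, rose 2.30-fold in wild type (648 to 1489) and 2.32-fold in tri-CH1 (505 to 1169). The list medians were -0.04 and 0.02. Cnot3, of the same complex, had 534 and 308 in the wild type and 394 and 705 in tri-CH1, a genotype difference of 1.20 in hypoxia. The list for AU-rich element binding also held the poly(C)-binding protein genes Pcbp1 and Pcbp2. None of its 9 genes passed 2-fold with oxygen. Its medians were -0.31, which is the value of Pcbp2, and 0.08. In it, Zfp36l2 was higher in tri-CH1 in hypoxia by 1.23. Among 7 genes of other RNA-processing enzymes, with medians of -0.40 and -0.16, Rcl1 fell at least 3.04-fold in the wild type and Pop5 2.61-fold in tri-CH1, where Pop5 had 575 and 221 after 434 and 163 in wild type.

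**Figure D5:**
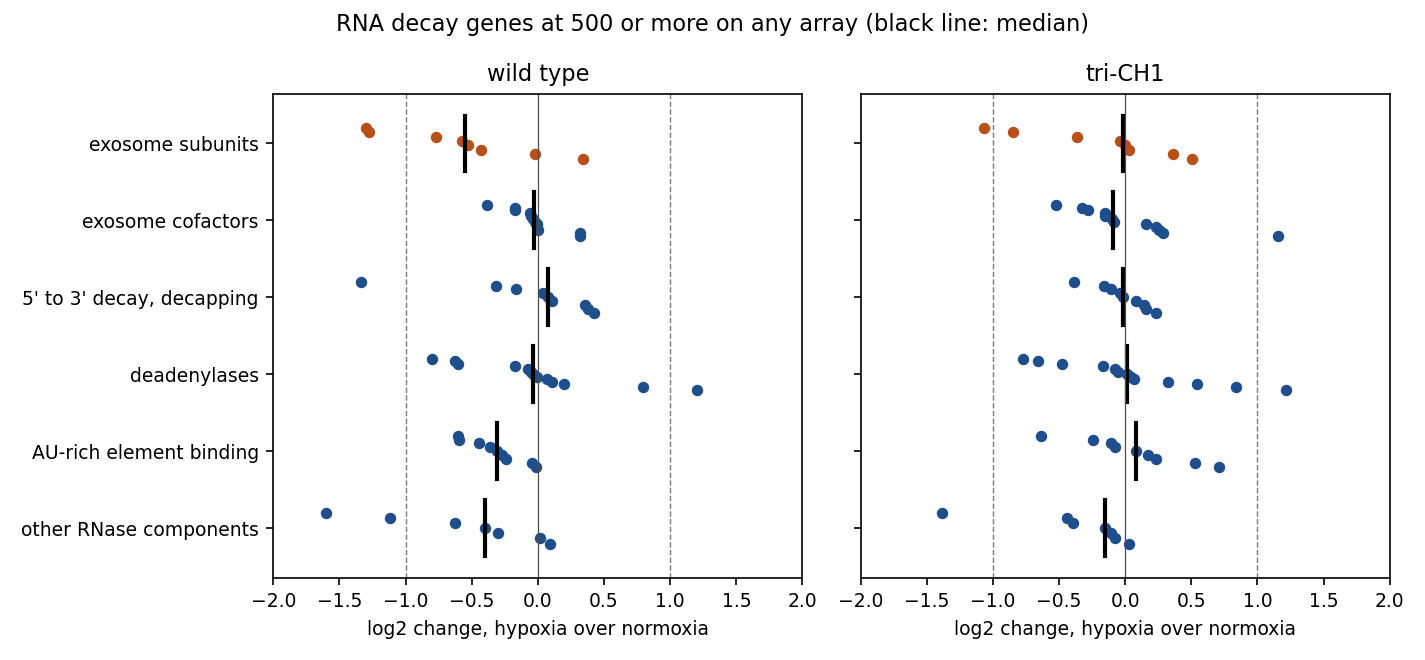
Log2 change of hypoxia over normoxia in wild type (left) and tri-CH1 (right) for each gene at 500 or more on some array in 6 groups of RNA decay and processing genes, with the group median as a black line and 2-fold as dashed lines. The deadenylase group also holds proteins that act with deadenylases, and the AU-rich element group also holds Pcbp1 and Pcbp2. The median of the exosome subunits is -0.55 in the wild-type panel and -0.02 in the tri-CH1 panel, the lowest and about the middle of the 6 groups; the other RNase components are at -0.40 and -0.16, the AU-rich element group at -0.31 and 0.08 and the exosome cofactors at -0.03 and -0.09.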

How the data were processed

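RNA of 4 samples was measured on 1 Affymetrix array each. Per the labels, the authors used the Affymetrix statistical algorithm, which corrects for background, for a signal intensity of every probe set, and scaled each array to a target of 500; the deposited intensity values are linear, and the software version was not given in the sources used here. Of 22690 probe sets, 20380 had 1 gene symbol in the platform annotation, 691 several and 1555 none; 64 were controls. Only those with 1 symbol were used; 20351 matched RefSeq by gene number and 0 symbols changed.

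The floor of 200, the minimum of 500, the 2-fold limit and the choice of the brightest probe set were taken over from an earlier look at these data; members and gene lists were chosen with earlier results known. With 1 array per group nothing was tested. All 9 measured members were named, with the genes of the RNA decay and processing lists and the HIF target list past 2-fold in any comparison, the 5 genes nearest in pattern to Exosc4 and its neighbours on the chromosome. Cell type markers, the 5 genes nearest to Exosc1 and further cofactors were named outside that rule, after their values were seen. The calling step was tested on simulated data for genes with a mean signal of 500 or more. Many exosome signals are dimmer than that, and for these the test says nothing. Alternatives were floors of 100, 400 and none, minimums of 250 and 1000, quantile normalization, cyclic loess, scaling to the same median, the mean over probe sets, plain _at probe sets only and, added after seeing the data, the second-brightest probe set. Python 3.11.15, numpy 2.4.6, pandas 2.3.3, matplotlib 3.10.9, R 4.3.3 and limma 3.58.1 were used.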

Additional observations from a re-analysis of the deposited data

Results flagged for a closer look

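The hypoxia change of Exosc4 had opposite signs in the genotypes, -1.30 in wild type and 0.50 in tri-CH1, a log2 difference of 1.80; it was not tested, since each genotype has 1 array per oxygen level, and another probe set gave -0.37. Dis3 also had opposite signs, -0.43 in wild type and 0.03 in tri-CH1, a difference of 0.46 that was not tested either, with a tri-CH1 change close to 0.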

How the results depend on the processing

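No paired analysis was possible because each group has 1 array, and for the same reason no array could be left out. A floor of 400 left 0 subunits past 2-fold in each of the 4 comparisons and an Exosc4 difference between genotypes of 1.15, since most exosome signals on the dimmer side lie under it. The mean over all probe sets left 0 in hypoxia in wild type, 0 in hypoxia in tri-CH1 and 0 between genotypes in hypoxia, with an Exosc4 difference of 0.074; it takes in probe sets under 200 on all arrays. With plain _at probe sets only, 1 fell in wild type (Exosc4) and 0 in tri-CH1, as the bright probe set of Exosc1 is then left out. The second-brightest probe set of Exosc1, Exosc4 and Exosc10, chosen after seeing the data, gave 0, 0 and 0 in those comparisons and turned the Exosc4 difference to -0.37 and its genotype difference in hypoxia to -0.78. Exosc9 stayed lower by 2-fold in tri-CH1 normoxia in each setting other than the floor of 400. With a minimum of 1000 no subunit counted, so that setting has no value. Floors of 100 or none, the minimum of 250, and the 3 other scalings kept each count of subunits. Scaling to the same median turned the small subunit medians to 0.01 for hypoxia in tri-CH1 and -0.05 for genotype in normoxia. Dim signals limit precision too: 6 of 15 probe sets did not reach 500 on any array.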
